A study of Mus musculus with 6 samples.

Results

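Integrins are the main receptors by which animal cells hold on to extracellular matrix. The genes described here are 25 integrin subunits, the collagen receptors Ddr1 and Ddr2, and cytoplasmic adaptors that tie integrins to actin, 37 genes chosen by name. A gene counted as measured where a probe set of the array was annotated with that symbol and no other. This held for 36 of the 37 genes out of 19938 genes in all, each through a single probe set, and Ptk2 (focal adhesion kinase) was not analysed here. RNA came from immortalized neural precursor-like cells of C57BL/6J embryo brain at day 13.5, either wild type or null for Lgi1, a secreted protein of the nervous system. All cells had been immortalized, and all were kept in RPMI with 1% FBS at the stage that was measured, after earlier culture in neurobasal medium with B-27 on poly-D-lysine. The 3 samples of each genotype were hybridised to Affymetrix Mouse Gene 1.0 ST arrays. The labels call them biological triplicates. How many embryos or lines stand behind a genotype was not given in the sources used here, so p-values reflect only the scatter among these samples, which may be technical.

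An integrin is a pair of an α and a β subunit, and the pair decides what the cell can bind. The β1 chain pairs with most α chains: with α1, α2, α10 and α11 it binds collagen, with α3, α6 and α7 laminin, and with α5 and α8 ligands that carry the RGD tripeptide, such as fibronectin and nephronectin. The αv chain makes RGD receptors with β1, β3, β5, β6 or β8, and some of these release active TGF-β from its latent complex. The β2 and β7 chains and their α partners belong to white blood cells. The discoidin domain receptors are tyrosine kinases that bind fibrillar collagen without an integrin. Inside the cell, talins and kindlins bind the β tail and switch the receptor on, vinculin strengthens the link from talin to actin, and the complex of ILK, PINCH (Lims1) and α-parvin forms a second link. In the embryonic brain, laminin receptors such as α6β1 and α3β1 hold radial glia at the basement membrane of the brain surface.

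Values are log2 intensities, so a difference of 1 is 2-fold, and differences are given as knock-out minus wild type. Array medians lay between 6.36 and 6.41, and Pearson correlations over genes were 0.998 within a genotype and 0.965 to 0.966 between genotypes. Genes of nasal odorant and pheromone receptors, 1194 in all, served to gauge background: their median was 4.89, and their 95th percentile of 5.68 is called the background level here. A gene is said to have risen or fallen where limma's adjusted p over all 19938 genes was under 0.05. Lgi1 lay below the background level in wild-type cells (4.61, 4.75 and 4.94) as well as in knock-out cells (4.53, 4.57 and 4.54), so its level does not check the genotype labels. The difference of −0.22 did not pass (adjusted p = 0.0747, and 0.0183 to 0.226 over the alternatives), but did with the replicate number fitted as a block (adjusted p = 0.0463) and without wild-type replicate 1 (−0.30, adjusted p = 0.0183). Over all genes 31.6% rose or fell, and 49.7% of those above the background level in at least 1 genotype. Of 10 neural progenitor markers, 9 of them above it in at least 1 genotype, 5 fell and none rose. Msi1, an RNA-binding protein of these cells, did not pass (0.31, adjusted p = 0.17, and 0.0187 to 0.469 over the alternatives), but did with the replicate block (adjusted p = 0.0187) and without wild-type replicate 1 (0.46, adjusted p = 0.0343) or knock-out replicate 2 (0.47, adjusted p = 0.0343). Sox2 went from 11.26 in wild-type cells to 5.35, below the background level, in knock-out cells. Xist (X chromosome) rose from below the background level, at least 108-fold, and Eif2s3y, Uty and Kdm5d (Y chromosome) fell to below it, by at least 10.2-fold to at least 22.7-fold, so a difference in sex chromosome expression and the genotype cannot be told apart in any comparison below. In bulk RNA such as this, fewer cells of a type and less RNA per cell cannot be told apart either.

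The largest rises were those of Ddr2, Itga2 and Itga1, all receptors for collagen, and the largest falls those of the laminin receptor chain Itga3 and of Itgb8, which pairs with αv. Of the 36 measured genes, 13 rose and 7 fell, or 55.6%, against 31.6% of all 19938 genes (14.0% of all genes rose and 17.6% fell). Among all genes that were above the background level in at least 1 genotype, 49.7% changed, and 26 of the 36 genes were above it in at least 1 genotype. At least 2-fold changes were seen in 5 genes that rose (Itga1, Itga2, Itga11, Itga8 and Ddr2) and 2 that fell (Itga3 and Itgb8). Over all genes 5.32% changed at least 2-fold, 3.05% upward and 2.27% downward, and among genes above the background level in at least 1 genotype the share was 9.10%. The arrays of the genotypes did not overlap for 25 of the 36 genes, 17 with the knock-out above and 8 with it below, against 42.3% of all genes. The median difference was +0.08 for the 36 genes and −0.01 for all genes, and the median size of the difference was 0.32 against 0.11. The SD within a genotype ran from 0.0037 to 0.304.

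**Figure D1:**
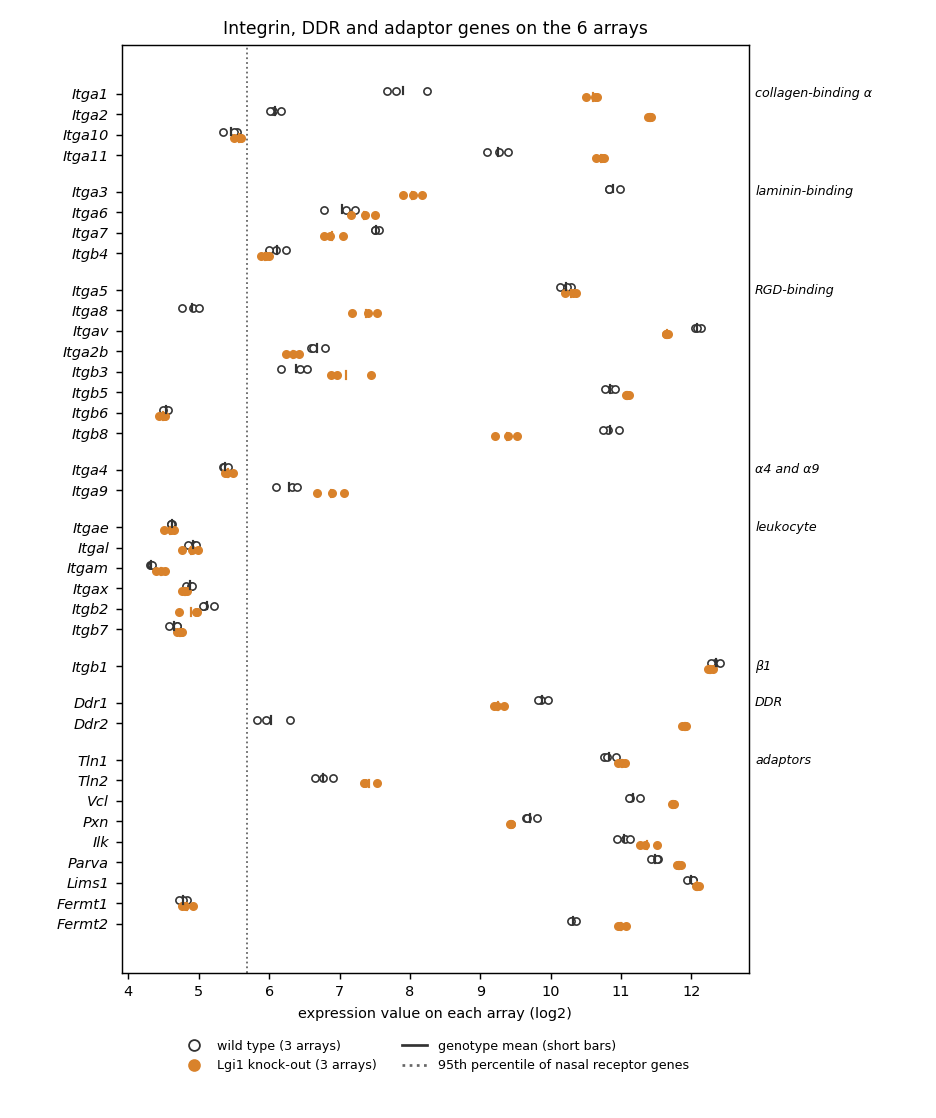
The log2 value of each of the 36 measured genes (rows, grouped by class) on the 3 wild-type arrays (open circles) and the 3 knock-out arrays (filled circles), with a vertical tick at each genotype's mean and a dotted line at the background level of 5.68. Ddr2 and Itga2 stand far to the right in knock-out cells, at means of 11.90 and 11.41 against 6.02 and 6.08, while the 6 leukocyte subunits lie left of the dotted line in both genotypes.

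Of the 4 α subunits that make collagen receptors with β1, 3 rose and Itga10 did not. The start-site upstream sequences of these 3 genes are shown because the genes rose together, and that of Itga3 because it fell. Each is the 250 bases before an annotated start in RefSeq's promoter table for GRCm38.p6, 5′ to 3′ on the gene's own strand, with CG dinucleotides in capitals. Itga2 is from chr13:114932101-114932350 (minus strand), Itga1 from chr13:115101965-115102214 (minus), Itga11 from chr9:62677605-62677854 (plus) and Itga3 from chr11:95076715-95076964 (minus). The table held an entry for 26 of the 37 genes, and the start used for Itga3 is the first of 2 and lies 130 bases inside the gene.
Itga2: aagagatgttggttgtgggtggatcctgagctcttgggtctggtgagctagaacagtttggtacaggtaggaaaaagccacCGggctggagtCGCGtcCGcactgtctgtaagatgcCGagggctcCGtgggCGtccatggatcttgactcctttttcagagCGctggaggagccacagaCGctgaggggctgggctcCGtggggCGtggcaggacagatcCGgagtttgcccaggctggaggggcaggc
Itga1: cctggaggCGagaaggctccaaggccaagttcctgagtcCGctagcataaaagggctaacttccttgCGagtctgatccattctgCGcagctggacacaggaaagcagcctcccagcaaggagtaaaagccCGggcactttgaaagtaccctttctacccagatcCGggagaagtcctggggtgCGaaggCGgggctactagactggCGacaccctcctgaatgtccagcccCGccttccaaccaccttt
Itga11: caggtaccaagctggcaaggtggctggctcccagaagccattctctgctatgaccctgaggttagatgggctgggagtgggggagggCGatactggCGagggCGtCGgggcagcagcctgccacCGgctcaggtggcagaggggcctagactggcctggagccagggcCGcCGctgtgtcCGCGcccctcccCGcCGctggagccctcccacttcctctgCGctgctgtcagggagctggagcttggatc
Itga3: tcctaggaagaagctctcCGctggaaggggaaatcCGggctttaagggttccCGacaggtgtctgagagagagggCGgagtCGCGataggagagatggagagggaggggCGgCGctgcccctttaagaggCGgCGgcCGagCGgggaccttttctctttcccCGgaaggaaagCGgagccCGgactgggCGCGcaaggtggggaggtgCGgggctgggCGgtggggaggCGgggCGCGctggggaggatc

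These windows hold 12 CG dinucleotides for Itga2, 10 for Itga1, 12 for Itga11 and 22 for Itga3. Over all 32851 entries of the same length the median is 6, with quartiles of 2 and 16. Itga3 is therefore above the upper quartile, and Itga2, Itga1 and Itga11 lie between the quartiles. The window of Ddr2, which holds 1 CG dinucleotide, is not shown. Its annotated start lies 21892 bases inside the gene. The share of G and C was 60.8%, 57.6% and 68.4% for Itga2, Itga1 and Itga11 and 67.6% for Itga3, against a median of 52.4%. Motifs were counted on both strands, overlapping matches included. They were GGGCGG (the GC box of Sp1-type factors), TATAAA (the TATA box) and TGANTCA (the AP-1 motif). The last is the same on both strands and was counted once. GGGCGG was found 3 times for Itga3 and not for the other genes shown, and 32.7% of all entries hold it. The second Itga3 entry held 5 CG dinucleotides and 1 GGGCGG. Other genes of the family went both ways. Of genes that rose, Fermt2 and Vcl held 5 and 4 GGGCGG, and Itga8 and Itga9 held 0. Of genes that fell, Itgb8 and Itgav held 0 and the first Ddr1 entry 1. Whether the motif has a part in the changes was not tested. Neither TATAAA (12.4% of all entries) nor TGANTCA (6.75%) was found in the windows shown, and the Ddr2 window held 1 TATAAA.

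Itga2 encodes the α2 chain of the α2β1 collagen receptor, known from platelets and epithelium. Its probe set (10412267, chromosome 13) read 6.17, 6.05 and 6.01 in wild-type cells and 11.41, 11.43 and 11.38 in knock-out cells. All knock-out arrays were above all wild-type arrays, which stood only slightly above the background level. The means were 6.08 ± 0.0818 and 11.41 ± 0.0234 (SD, n = 3 each), a rise of 5.33 (SE 0.06, adjusted p = 8.50e-12) or 40.2-fold. It was the 22nd largest rise among all genes.

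Itga1 encodes the α1 chain, whose receptor prefers basement membrane collagen. Probe set 10412298 (chromosome 13) read 7.68, 7.80 and 8.24 in wild-type cells and 10.63, 10.66 and 10.50 in knock-out cells. The groups did not overlap, and the wild-type arrays spread more than the knock-out arrays. The means were 7.91 ± 0.300 and 10.59 ± 0.0825 (SD, n = 3 each), a rise of 2.69 (SE 0.13, adjusted p = 8.82e-08) or 6.45-fold. Itga1 and Itga2 are adjacent protein-coding genes on chromosome 13, in the order Mocs2, Itga2, Itga1, Pelo in GRCm38.p6. Mocs2 and Pelo, looked up after the values were seen, rose by far less, by 0.23 (adjusted p = 0.0157) and by 0.23 (adjusted p = 0.0214).

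Itga11 encodes the α11 chain, a receptor for fibrillar collagen on mesenchymal cells. Probe set 10586079 (chromosome 9) read 9.39, 9.10 and 9.26 in wild-type cells and 10.64, 10.76 and 10.73 in knock-out cells. The groups lay apart, and this gene was well above the background level in both genotypes. The rise was 1.46 (SE 0.08, adjusted p = 2.73e-07) or 2.76-fold, from 9.25 ± 0.143 to 10.71 ± 0.0628 (SD, n = 3 each). Itga10, the collagen receptor chain of cartilage, was below the background level in both genotypes (5.46 and 5.57), and its difference of 0.10 did not pass (95% confidence interval −0.06 to 0.26, adjusted p = 0.347).

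The receptor tyrosine kinases for collagen moved in opposite directions. Ddr2, which is activated by fibrillar collagen and is typical of mesenchymal cells, had log2 values of 6.29, 5.83 and 5.95 in wild-type and 11.92, 11.93 and 11.87 in knock-out cells (probe set 10359929, chromosome 1). The wild-type arrays lay just above the background level, and the groups were far apart. The rise of 5.88 (SE 0.10, adjusted p = 6.83e-11), from 6.02 ± 0.239 to 11.90 ± 0.0313 (SD, n = 3 each), was 58.8-fold and the 15th largest of all genes. Ddr1, found mainly in epithelium and neural cells, read 9.87, 9.81 and 9.97 against 9.19, 9.23 and 9.33 (probe set 10450579, chromosome 17). These groups did not overlap either, and Ddr1 remained well above the background level in both genotypes. Ddr1 fell by 0.63 (SE 0.07, adjusted p = 4.98e-05) or 1.55-fold, from 9.88 ± 0.0786 to 9.25 ± 0.0705 (SD, n = 3 each).

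**Figure D2:**
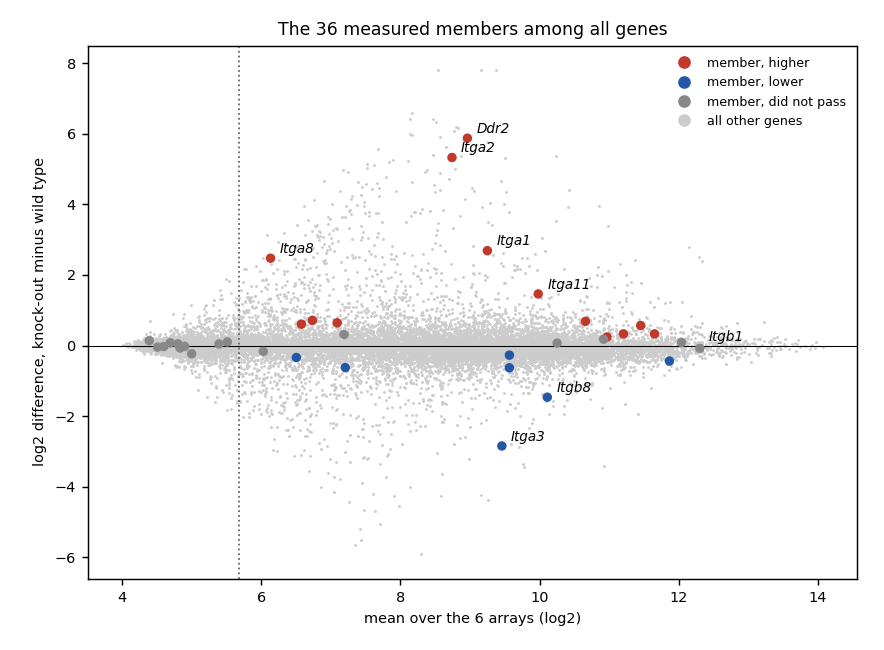
Each grey point is 1 of the 19938 genes. Its mean log2 value over the 6 arrays is horizontal and its log2 difference, knock-out minus wild type, vertical. The 36 measured genes are coloured by call, and those past 2-fold and Itgb1 are labelled. Ddr2 (5.88) and Itga2 (5.33) lie near the top of the cloud. Itga3 (−2.85) and Itgb8 (−1.46) are the genes of the family that fell past 2-fold, and Itgb1 (−0.08) lies near 0.

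Of the 4 laminin receptor chains, 2 fell and none rose. Itga3 encodes the α3 chain of α3β1, a receptor for the laminins that contain the α5 chain. Its values were 10.83, 10.83 and 10.98 in wild-type cells and 8.04, 7.90 and 8.17 in knock-out cells (probe set 10390117, chromosome 11). The groups lay apart, with the knock-out arrays still above the background level. It fell by 2.85 (SE 0.08, adjusted p = 1.94e-09) or 7.19-fold, from 10.88 ± 0.0859 to 8.04 ± 0.137 (SD, n = 3 each), the 51st largest fall of all genes.

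Itga7, the laminin receptor chain of muscle, fell by 0.62 (SE 0.08, adjusted p = 1.46e-04), from 7.52 to 6.90. Itga6, the chain of α6β1 on radial glia and many stem cells, read 7.10, 7.22 and 6.78 in wild-type cells and 7.37, 7.51 and 7.17 in knock-out cells. In each genotype the third replicate was the lowest, and the groups overlapped. The difference of 0.31 (SE 0.12, 95% confidence interval 0.05 to 0.58) did not pass the test (adjusted p = 0.0746). It passed with the replicate block (adjusted p = 0.00318), which fits the paired replicate numbers, without wild-type replicate 2 (0.41, adjusted p = 0.0334) and without knock-out replicate 3 (0.40, adjusted p = 0.0408). Its adjusted p ran from 0.00318 to 0.238 over the alternatives. Itgb4, the β partner of α6 in epithelial hemidesmosomes, had means of 6.11 and 5.95 and did not pass (−0.17, adjusted p = 0.135).

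Chains of RGD receptors moved in both directions, 3 up and 3 down of 8. Itga8, the α8 chain that binds nephronectin and is known from mesenchyme and smooth muscle, read 4.92, 4.77 and 5.0 in wild-type cells and 7.41, 7.54 and 7.17 in knock-out cells (probe set 10480090, chromosome 2). Every wild-type array was below the background level and every knock-out array above it. The fitted rise was 2.48 (SE 0.10, adjusted p = 2.20e-08), from 4.90 ± 0.118 to 7.37 ± 0.184 (SD, n = 3 each). Against the background level the knock-out mean was at least 3.23-fold higher. Itga5, which makes the classical fibronectin receptor with β1, had means of 10.22 and 10.29 and did not pass (0.07, 95% confidence interval −0.08 to 0.22, adjusted p = 0.535). Itga2b, the α chain of the platelet fibrinogen receptor, fell by 0.34 (adjusted p = 0.0066), from 6.68 to 6.34.

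The αv chain and its β partners did not all move one way. Itgav read 12.13, 12.05 and 12.08 in wild-type cells and 11.66, 11.64 and 11.64 in knock-out cells, without overlap, a fall of 0.44 (SE 0.06, adjusted p = 2.08e-04). Itgb8, whose αvβ8 receptor activates TGF-β on neural progenitors, read 10.81, 10.75 and 10.97 against 9.53, 9.40 and 9.21 (probe set 10403229, chromosome 12). The groups were apart by more than the range within either. Itgb8 fell by 1.46 (SE 0.09, adjusted p = 7.49e-07) or 2.76-fold, from 10.84 ± 0.117 to 9.38 ± 0.158 (SD, n = 3 each). Itgb3, the β chain of αvβ3 and of the platelet receptor, rose by 0.72 (SE 0.14, adjusted p = 0.00323), with values of 6.44, 6.17 and 6.53 against 6.88, 6.96 and 7.44. These groups did not overlap, and knock-out replicate 3 was the highest. Itgb5, the β chain of the vitronectin receptor αvβ5, rose by 0.24 (SE 0.06, adjusted p = 0.0124), from 10.85 to 11.09. Itgb6, the β chain of epithelial αvβ6, was below the background level in both genotypes (4.53 and 4.49, adjusted p = 0.669).

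Of the chains that bind VCAM-1, EMILIN-1 and related ligands, Itga9 rose by 0.61 (SE 0.11, adjusted p = 0.00143), from 6.28 to 6.88. Itga4, known from leukocytes and neural crest cells, was below the background level in both genotypes (5.37 and 5.42, adjusted p = 0.667). None of the 6 leukocyte subunits (Itgae, Itgal, Itgam, Itgax, Itgb2 and Itgb7) passed the test, 2 had an unadjusted p under 0.05, and all lay below the background level. Itgb2, the common β chain of leukocyte integrins, read 5.07, 5.22 and 5.07 in wild-type and 4.98, 4.95 and 4.72 in knock-out cells. The arrays did not overlap, although all were at background. Its difference of −0.23 (SE 0.08, adjusted p = 0.0575) passed with the replicate block (adjusted p = 0.0257) and with median centring (adjusted p = 0.0255). It also passed with quantile normalization (adjusted p = 0.0481), an intensity trend (adjusted p = 0.045) and a filter at the 25th percentile (adjusted p = 0.0497). The adjusted p ran from 0.0255 to 0.193 over the alternatives. Ptprc, Csf1r and Spi1, which define white blood cells and microglia, were also below the background level. Of 11 leukocyte markers 10 were below it in both genotypes and none passed, but 1 fell with quantile normalization and 1 with median centring. Cd68, a lysosomal protein of macrophages, was above the background level (6.83 and 6.61, adjusted p = 0.0785) and passed without wild-type replicate 2 (−0.31, adjusted p = 0.00823).

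Itgb1 encodes the β1 chain that the collagen, laminin and fibronectin receptors share. It read 12.34, 12.28 and 12.41 in wild-type cells and 12.26, 12.23 and 12.30 in knock-out cells (probe set 10576661, chromosome 8). The groups overlapped. The means of 12.34 ± 0.0654 and 12.26 ± 0.0355 (SD, n = 3 each) differed by −0.08 (SE 0.06, adjusted p = 0.411), with a 95% confidence interval of −0.22 to 0.06. That interval leaves out a change of the size seen for Itga2, Itga1, Itga11 or Itga3 in either direction.

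**Figure D3:**
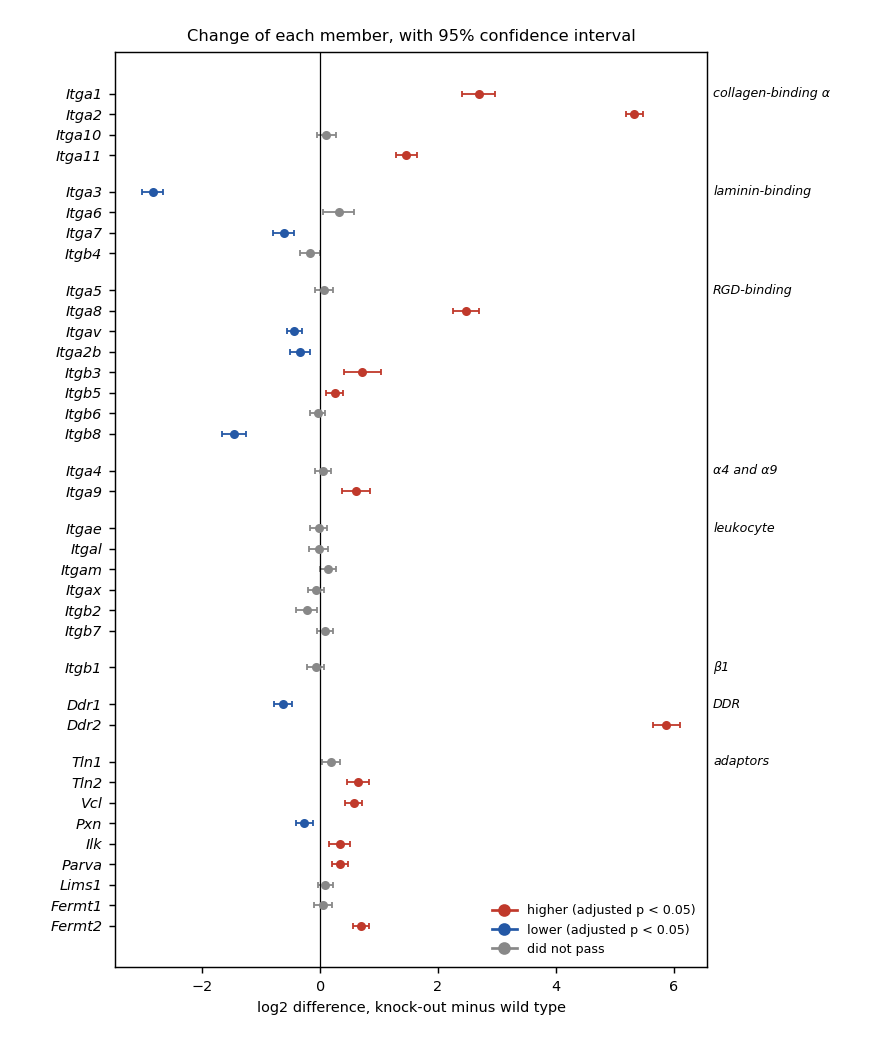
The log2 difference of each of the 36 measured genes, knock-out minus wild type, with its 95% confidence interval from limma, coloured by whether the gene rose, fell or did not pass at an adjusted p of 0.05. Ddr2, Itga2, Itga1 and Itga11 lie to the right, Itga10 near 0, Itga3 and Itgb8 to the left, and the adaptors between −0.27 and 0.69.

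Of the 9 adaptors measured, 5 rose, 1 fell and none changed 2-fold. Fermt2, which encodes kindlin-2, the kindlin of most tissues, had the largest difference among them. It read 10.30, 10.36 and 10.29 in wild-type and 10.99, 10.95 and 11.07 in knock-out cells. The groups were well apart, and Fermt2 rose by 0.69 (SE 0.06, adjusted p = 1.16e-05) or 1.61-fold. Vcl, encoding vinculin, read 11.12, 11.27 and 11.12 against 11.74, 11.75 and 11.73, a rise of 0.57 (adjusted p = 6.86e-05). Its knock-out arrays were nearly equal and all above the wild-type arrays. Fermt1, the kindlin of epithelium, was below the background level in both genotypes (adjusted p = 0.672).

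Of the talins, which carry force from integrin to actin, Tln2 rose by 0.64 (adjusted p = 1.83e-04), from 6.77 to 7.42. Tln1 had means of 10.83 and 11.01, and its arrays did not overlap, but the difference of 0.18 did not pass (adjusted p = 0.0658). It passed with the replicate block (adjusted p = 0.0426) and without wild-type replicate 3 (0.23, adjusted p = 0.0357). It also passed with quantile normalization (adjusted p = 0.0366), an intensity trend (adjusted p = 0.0447) and a filter at the median level (adjusted p = 0.0485). The adjusted p ran from 0.0357 to 0.201 over the alternatives. In the ILK complex, Ilk, its pseudokinase, rose by 0.33 (adjusted p = 0.0104), from 11.04 to 11.37, and Parva (α-parvin) rose by 0.33 (adjusted p = 0.00177), from 11.49 to 11.82. Lims1, which encodes PINCH-1, did not pass (difference 0.09, adjusted p = 0.336). Pxn, which encodes the scaffold paxillin, was the adaptor that fell, by 0.27 (adjusted p = 0.0076), from 9.70 to 9.43.

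Further genes of adhesion sites were examined in 3 lists. Of 51 genes measured out of 54, 14 rose and 16 fell (58.8%), with 2 past 2-fold in each direction and a median difference of −0.05. Over all genes 31.6% changed, and 49.7% of those above the background level in at least 1 genotype. Of the 51 genes, 49 were above it. Among 23 other structural adaptors, 10 rose and 5 fell. Rsu1 rose by 0.22 (adjusted p = 0.0223), but did not pass without wild-type replicate 2 or 3 or knock-out replicate 1 (adjusted p = 0.0629 to 0.0866). Tns1, encoding the actin-binding adaptor tensin-1, rose by 1.03 (adjusted p = 7.26e-06), from 8.99 to 10.02. It had 6 probe sets, of which 5 were higher in knock-out cells, and their average rose by 0.67. Tns3 (tensin-3) fell by 0.91 (adjusted p = 2.24e-06), from 10.43 to 9.51. Enah, an actin polymerization factor at adhesion sites, rose by 0.94 (adjusted p = 9.09e-07). Lpxn (leupaxin, a paxillin relative) fell from 6.38 to below the background level, by at least 1.63-fold (adjusted p = 6.93e-06).

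Of 18 genes of adhesion signalling measured out of 20, 3 rose and 7 fell. Crkl rose by 0.22 (adjusted p = 0.0347), but did not pass without wild-type replicate 1 or 2 or any 1 of the knock-out replicates (adjusted p = 0.0538 to 0.122). Bcar1, a docking protein for Src, did not pass (−0.22, adjusted p = 0.085, and 0.0231 to 0.258 over the alternatives), but did with the replicate block (adjusted p = 0.0415), which gave 8 that fell, and without wild-type replicate 1 (−0.30, adjusted p = 0.0231) or knock-out replicate 3 (−0.28, adjusted p = 0.0466). Cav1, encoding caveolin-1 of plasma membrane caveolae, fell by 1.74 (adjusted p = 1.19e-07), from 10.22 to 8.49. Arhgap26, which binds focal adhesion kinase, fell by 1.51 (adjusted p = 1.30e-06), from 7.40 to 5.89. Ptk2b, the kinase related to focal adhesion kinase, fell from 6.17 to below the background level, by at least 1.40-fold (adjusted p = 2.70e-04). Src, the founding kinase of its family, fell by 0.57 (adjusted p = 6.28e-05). Of 10 membrane proteins or secreted relatives that associate with integrins or resemble them, 1 rose and 4 fell, and without knock-out replicate 1 the counts were 1 and 2. Cd151, the tetraspanin that partners laminin-binding integrins, fell by 0.84 (adjusted p = 4.67e-06), from 10.69 to 9.85, beside the fall of Itga3. Cd82, another tetraspanin, fell by 0.85 (adjusted p = 2.12e-05). Itgbl1, a secreted protein with integrin β-like repeats, rose from below the background level to 7.19, at least 2.85-fold (adjusted p = 6.70e-05). Plaur, the urokinase receptor, fell by 0.47 (adjusted p = 0.0437), but did not pass with the replicate block (adjusted p = 0.0557), and this p ran from 0.00578 to 0.155 over the alternatives. Plaur also did not pass without wild-type replicate 1 (−0.48, adjusted p = 0.08) or 2 (−0.36, adjusted p = 0.155), or without knock-out replicate 1 (−0.45, adjusted p = 0.109) or 2 (−0.31, adjusted p = 0.149).

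**Figure D4:**
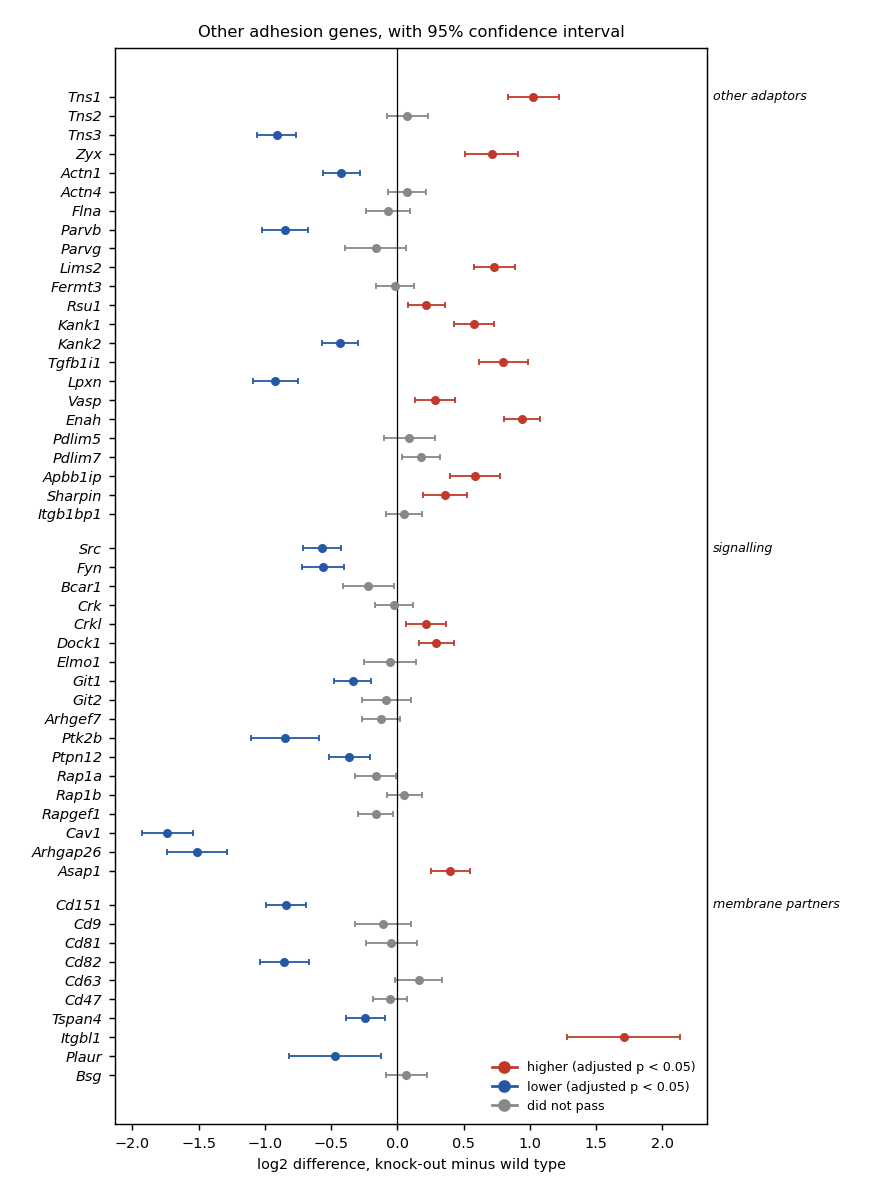
The log2 difference, knock-out minus wild type, with its 95% confidence interval, of the 51 measured genes of the 3 further adhesion lists. Tns1 (1.03) and Itgbl1, which is below the background level in wild-type cells, are the rises past 2-fold, and Cav1 (−1.74) and Arhgap26 (−1.51) the falls.

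The ligands were grouped by the receptors that bind them. Of 38 measured out of 41, 19 rose, 12 by at least 2-fold, and 5 fell, 3 by at least 2-fold (63.2% in all), with a median difference of +0.22. The share was 31.6% of all genes and 49.7% of those above the background level in at least 1 genotype, as were 32 of the 38. Among the collagen chains, 9 of 10 rose, as did 3 of the 4 collagen-binding α chains and Ddr2. Col1a2, a chain of type I collagen, rose by 5.30 (adjusted p = 1.10e-10), from 6.85 to 12.15. Col3a1, of fibrillar type III collagen, rose by 2.60 (adjusted p = 1.20e-08), and Col5a2, of type V, by 1.41 (adjusted p = 3.54e-07). Col6a3, a chain of beaded-filament type VI collagen, rose from below the background level to 8.59, at least 7.49-fold (adjusted p = 2.51e-08). Col4a1, of basement membrane collagen, did not pass (7.93 and 7.88, adjusted p = 0.666).

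Of 9 laminin chains, 3 rose and 3 fell. Of these falls, that of Lamb1 (−0.28, adjusted p = 0.0211) did not pass without wild-type replicate 1 or 3 or knock-out replicate 1 or 3 (adjusted p = 0.0543 to 0.0817). Lama5, the α5 chain in laminins that α3β1 binds, fell by 2.92 (SE 0.08, adjusted p = 1.24e-09), from 9.32 ± 0.120 to 6.40 ± 0.0929 (SD, n = 3 each), close in size to the fall of Itga3. Lama2, the chain of muscle and glial basement membranes, fell by 2.19 (adjusted p = 2.14e-09), from 10.25 to 8.06. Lama4, of vessel and mesenchymal basement membranes, rose by 2.68 (adjusted p = 2.52e-09), from 7.30 to 9.98. Lama1, the chain of early embryonic laminin, rose from below the background level to 6.21, at least 1.44-fold (adjusted p = 1.11e-06). Levels of different probe sets cannot be compared, so these values do not give which laminin was most abundant.

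Of 8 RGD ligands, 4 rose and none fell. Tnc (tenascin-C) did not pass (0.18, adjusted p = 0.0888, and 0.0358 to 0.286 over the alternatives), but did with the replicate block (adjusted p = 0.0358), which gave 5 that rose. Fn1 (fibronectin) rose by 0.66 (adjusted p = 1.30e-05), from 12.90 to 13.56, whereas its receptor chain Itga5 did not pass. Tgfb3, whose latent form binds αv integrins, rose by 2.31 (adjusted p = 7.22e-09), from 10.00 to 12.31, beside the fall of Itgb8. Egfl6, a secreted RGD protein that binds α8β1, rose from below the background level to 6.06, at least 1.30-fold (adjusted p = 2.77e-05). Mfge8, a secreted protein that binds αv integrins, rose by 0.26 (adjusted p = 0.0212), but not without wild-type replicate 2 (0.21, adjusted p = 0.0794) or knock-out replicate 3 (0.21, adjusted p = 0.0816). Npnt (nephronectin), the main ligand of α8β1, had means of 10.22 and 10.30 and did not pass (adjusted p = 0.496), while Itga8 rose.

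Of 5 ligands of α4 or α9 integrins, 2 rose and 1 fell. Svep1, a large secreted ligand of α9β1, rose from below the background level to 10.44, at least 27.0-fold (adjusted p = 9.08e-12), and Emilin1, an elastic fibre glycoprotein, rose by 2.52 (adjusted p = 5.34e-08). Both rose beside their receptor chain Itga9. Vegfc, a growth factor that also binds α9β1, fell from 7.13 to below the background level, by at least 2.74-fold (adjusted p = 5.82e-09). Of 6 ligands of leukocyte integrins, Icam1 rose by 0.46 (adjusted p = 0.00242), Cdh1 (E-cadherin, the ligand of αEβ7) fell to below the background level, by at least 1.35-fold (adjusted p = 1.24e-05), and the other 4 were below the background level.

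**Figure D5:**
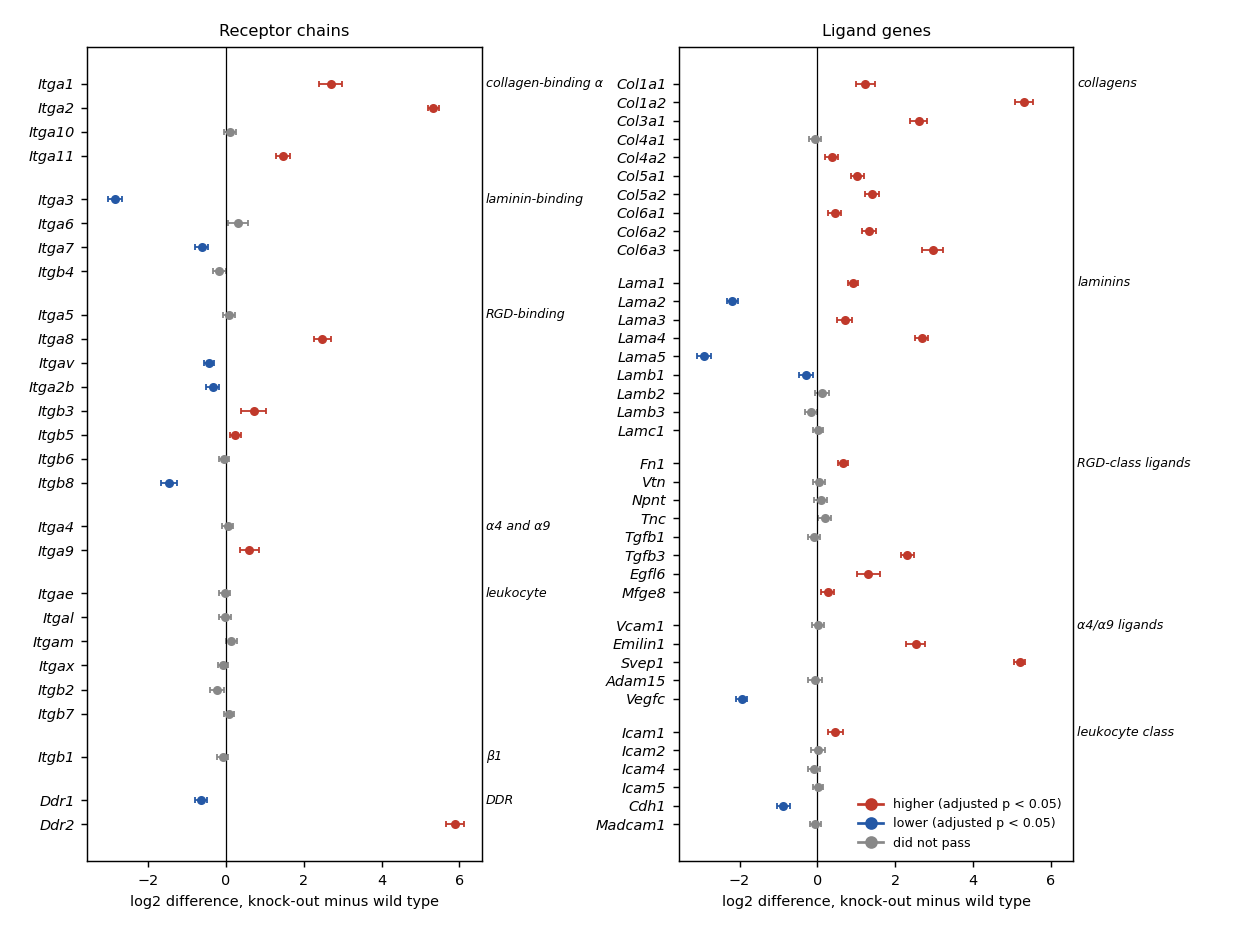
The log2 difference, knock-out minus wild type, with its 95% confidence interval, of receptor chains and of the ligands of the same class, side by side. Itga1, Itga2, Itga11, Ddr2 and 9 of the 10 collagen chains lie to the right, while Itga10 and Col4a1 lie near 0 and Ddr1 (−0.63) to the left, and the laminin chains spread to both sides, with Itga3 at −2.85 and Lama5 at −2.92.

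Markers of some other cell types also changed. For comparison, 14.0% of all genes rose and 17.6% fell, and 49.7% of those above the background level in at least 1 genotype changed. All 10 fibroblast, 7 of 8 smooth muscle and 9 of 10 neural progenitor markers were above it in at least 1 genotype. Of 10 fibroblast and meningeal markers, 9 rose and none fell, and their summed log2 level per array ran from 68.2 to 68.7 in wild-type and from 96.0 to 96.6 in knock-out cells. Col1a1 and Col1a2 stand both in that list and among the collagen ligands. The 8 smooth muscle and pericyte markers (5 rose) summed to 68.5 to 69.4 and 76.9 to 77.7, with Myh11, which defines mature smooth muscle, below the background level in both genotypes. The largest of these rises was that of Cnn1, by 4.65 (adjusted p = 1.73e-09), from 5.84 to 10.49. Acta2 (0.16, adjusted p = 0.176) and Tagln (0.02, adjusted p = 0.907), both well above the background level in both genotypes, did not pass. Among the 5 rises, that of Pdgfrb (0.23, adjusted p = 0.0278) did not pass without wild-type replicate 1 or 2 or knock-out replicate 1 or 2. The 10 neural progenitor markers summed to 85.2 to 85.7 and 72.4 to 72.5. Of 7 endothelial markers, summing to 34.3 to 35.3 and 41.9 to 42.3, 2 rose and 1 fell. Kdr, the 1 that fell (−0.44, adjusted p = 0.0174), was below the background level in both genotypes. It did not pass without knock-out replicate 1 or 3. Erg, a transcription factor of endothelium, rose from below the background level to 9.97, at least 19.5-fold (adjusted p = 5.77e-11), and Tek, the angiopoietin receptor, to 8.21, at least 5.76-fold (adjusted p = 7.22e-09). Pecam1 and Cdh5, which define endothelium, were below the background level in both genotypes. The 6 epithelial markers (2 fell, but 1 without wild-type replicate 1 or 3 or knock-out replicate 2 or 3) summed to 31.5 to 31.8 and 30.0 to 30.5, and Krt5 and Krt14 were below the background level. The 4 platelet and megakaryocyte markers (1 rose, but none without wild-type replicate 2 or 3 or knock-out replicate 1 or 2), all below it, summed to 20.1 to 20.8 and 20.4 to 20.9, and the 11 leukocyte markers to 55.8 to 55.9 and 55.4 to 55.7. The 8 neuron markers (1 rose and 1 fell, or 1 and 3 with the replicate block) summed to 48.3 to 48.6 and 47.6 to 48.2. The part of the changes in fibroblast, smooth muscle and neural progenitor markers in the receptor changes was not tested. Nor was that of the rises of Erg and Tek and the fall of Cdh1.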

How the data were processed

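The deposited table gave each probe set a log2 value for every array, the scale being read from the spread of the numbers. Partek is named without a version in the submitters' processing notes. The background correction, normalization and summarization that the authors used were not given in the sources used here, so how arrays were scaled to one another is unknown. Of 35556 probe sets, 21789 had 1 gene symbol, 1621 several and 12146 none in the platform annotation. Of those with 1 symbol, 21698 matched RefSeq's GRCm38.p6 table by gene ID. The probe set with the highest mean was kept per gene. Genotypes were compared by lmFit and eBayes of limma 3.58.1 (R 4.3.3; no intensity trend, 4 residual degrees of freedom), adjusted by Benjamini-Hochberg over 19938 genes. Steps were tested on simulated data with independent noise on each array, so that test does not cover arrays that vary together. The number of arrays limits the precision. Titles number the replicates of each genotype 1 to 3. Deviations from genotype means correlated at 0.187 to 0.288 between same-numbered arrays and at −0.185 to −0.00466 otherwise, so arrays went together by number. The labels do not say whether same-numbered samples were paired. Deviations cancel out within a genotype, which ties these correlations to one another. Unless a block is named, p-values, standard errors, intervals and counts come from the fit without pairing. A fit with the numbers as a block stands beside each result whose call it changed. Other alternatives were quantile normalization, median centring, filters on low levels, averaged probe sets, an intensity trend, array weights, a stricter threshold and each array left out. Named genes were all measured genes of the family, those past 2-fold and Itgb1, Itgb2, Ddr1 and Ddr2 in full, and up to 4 of the largest called per further list. Itga10, Col4a1, Npnt and other genes that did not pass, and the neighbours of Itga2, were named after their values were seen. So were Erg, Tek, Kdr, Cnn1, Lamb1, Crkl, Rsu1 and Pdgfrb. The gene family and all lists were chosen with earlier results of these data known.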

Additional observations from a re-analysis of the deposited data

How the results depend on the processing

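Over 15 alternatives, all 20 genes of the family that changed kept their direction, and all stayed past an adjusted p of 0.05 wherever they were tested. At an adjusted p under 0.01, 18 remained called. The count ran from 18 to 23, the latter with the replicate number as a block, which added Itga6, Itgb2 and Tln1 and removed none. Without 1 array each it ran from 20 to 21. The further adhesion genes gave 26 to 31 calls against 30, the ligands 18 to 25 against 24, and all genes 4582 to 7000 against 6296. With the block 7000 genes were called, 6279 of them among the 6296, and of the named genes outside the family it changed the calls of Plaur, Bcar1, Tnc, Msi1 and Lgi1.

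Only differences near 0 turned sign. Itga4 stood at −0.0002 with arrays centred on their median. Without 1 array each, Itgae ran from −0.0596 to 0.0089 and Itgal from −0.075 to 0.0364, and the cause was not tested. Filters on low levels at the 25th percentile left 7 of the genes untested, and a filter at the median left out 12. With 3 arrays per genotype, small differences such as those of Itga6 and Tln1 lay near the threshold. Genes below the background level in only 1 genotype have only a bound on their fold change, and those below it in both have none.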
